A study of Mus musculus with 6 samples.

Results

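The NF-kappaB subunits and feedback target genes were followed through 15 probe sets for 10 genes, of 45101 probe sets on the array: the 5 subunit genes Nfkb1, Nfkb2, Relb, Rel and Rela, the IkappaB and feedback genes Nfkbia, Nfkbiz and Tnfaip3, and the target genes Icam1 and Birc3. The rule names them by probe set identifier and gene and applies no measured value, but it was written with earlier results of these data known. The deposited table gives identifiers only, so the gene names, which came with the selection, were not checked against an annotation here. Nfkbia is read by 3 probe sets and Nfkbiz, Tnfaip3 and Nfkb2 by 2 each, and probe sets of one gene are not independent of each other.

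Levels of mRNA were measured on 6 Affymetrix mouse arrays, 3 of miR-223 null neutrophils and 3 of wild-type neutrophils. Both genotypes were grown alike: bone marrow progenitors spent 6 days in isotope-labelling medium with G-CSF and SCF and then 42 hours without SCF, and live neutrophils were picked with magnetic beads. All 6 samples thus carry the same cytokine exposure, and the labels name no inflammatory stimulus for either genotype. The labels do not give the age, sex or strain of the mice, nor how many animals or cultures stand behind the replicates, so each p-value covers only the scatter among these arrays, part or all of which may be technical.

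NF-kappaB is a family of dimeric transcription factors. In resting cells most dimers are held in the cytoplasm by IkappaB proteins, and signals from Toll-like receptors or from the receptors for TNF and IL-1 lead to loss of the inhibitor and entry of the dimer into the nucleus. The active dimer then switches on genes of its own inhibitors along with inflammatory genes, a negative feedback loop, and in neutrophils the pathway drives cytokine production and delays cell death. miR-223 is a microRNA abundant in granulocytes that lowers the level or translation of mRNAs with sites matching its seed.

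The mature microRNA miR-223-3p is shown first, because its seed is what a direct target of it would match. A second mature product, miR-223-5p, has another seed and is not shown. The sequence of miR-223-3p was taken from RefSeq (GRCm38.p6, chrX:96242884-96242905, plus strand), and capitals mark the seed, bases 2 to 8.
mmu-miR-223-3p: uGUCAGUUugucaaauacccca
Seed sites in the mRNAs of the 10 genes were not analysed here.

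Promoters are shown for Nfkbia, Tnfaip3 and Nfkb2, because the feedback loop is known to run through kappaB sites in such promoters and because these genes differ in how they read below. The kappaB consensus GGGRNNYYCC (R is A or G, Y is C or T, N is any base) was searched on both strands, with no mismatch allowed. The RefSeq windows had 300 bases, from 250 before to 50 after an annotated start (GRCm38.p6). Capitals mark every base within a match, with overlapping matches merged. The Nfkbia window is chr12:55492598-55492897 (minus strand), the window of the first listed Tnfaip3 start is chr10:19015361-19015660 (minus strand), and that of the first listed Nfkb2 start is chr19:46304487-46304786 (plus strand).
Nfkbia: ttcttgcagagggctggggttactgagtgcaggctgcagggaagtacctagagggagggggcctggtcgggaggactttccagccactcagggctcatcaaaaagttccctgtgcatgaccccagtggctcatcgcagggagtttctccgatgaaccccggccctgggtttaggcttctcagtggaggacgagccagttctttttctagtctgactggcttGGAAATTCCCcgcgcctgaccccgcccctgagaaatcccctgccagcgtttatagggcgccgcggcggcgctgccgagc
Tnfaip3: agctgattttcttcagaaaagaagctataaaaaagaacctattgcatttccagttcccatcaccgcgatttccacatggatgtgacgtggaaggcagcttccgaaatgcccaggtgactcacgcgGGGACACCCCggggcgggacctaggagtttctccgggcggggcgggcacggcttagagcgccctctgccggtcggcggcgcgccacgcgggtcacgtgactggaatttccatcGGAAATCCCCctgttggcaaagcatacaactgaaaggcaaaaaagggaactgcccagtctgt
Nfkb2: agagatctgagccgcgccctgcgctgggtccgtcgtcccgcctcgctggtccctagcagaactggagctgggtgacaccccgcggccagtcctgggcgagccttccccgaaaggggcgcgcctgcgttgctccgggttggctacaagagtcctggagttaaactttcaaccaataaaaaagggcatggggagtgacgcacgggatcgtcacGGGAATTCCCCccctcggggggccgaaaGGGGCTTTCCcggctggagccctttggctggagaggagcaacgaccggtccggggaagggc
The match for Nfkbia lay at positions -29 to -20 from the start. Those for Tnfaip3 lay at -125 to -116 and at -12 to -3, and those for Nfkb2 at -39 to -29 and at -11 to -2. These positions are for the windows shown. The other listed Tnfaip3 window held no match, and the other Nfkb2 windows each held at least 1. Of the 10 genes, 7 had a window in the RefSeq table, and 4 of the 7 (Nfkbia, Tnfaip3, Nfkb2 and Rel) held a match in at least 1 window, as did 9.55% of all genes with a window. The windows of Rela, Icam1 and Birc3 held no match, which says only that the exact consensus is not in these bases. Sites that depart from it were not counted, so these promoters may still hold a kappaB site. A match describes the letters and was not tied to binding in these cells.

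The values are log2 intensities as deposited. Array medians lay between 4.71 and 4.73, and probe sets for bacterial tryptophan genes, for which no mouse transcript is present, averaged 2.77 to 2.86. The first principal component, with 48.7% of the variance, set the replicate 1 arrays of both genotypes apart from the other 4, and the second, with 27.5%, separated the genotypes. Spiked poly-A controls averaged 9.08 on null replicate 1 and 8.95 on wild-type replicate 1, against 8.32 to 8.73 on the other arrays. Because probe sets other than the 15 were not paired with genes, markers of neutrophils and of other cell types were not analysed here, and neither was miR-223 itself.

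Between miR-223 null and wild-type neutrophils, 0 of 15 probe sets had an adjusted p under 0.05 when arrays were treated as unpaired (limma, Benjamini-Hochberg over 27022 probe sets), where 0.189% of all probe sets passed. The adjusted p of the 15 ran from 0.311 to 0.987, and 2 of 15, both of Tnfaip3 and both lower in null, had an unadjusted limma p under 0.05, against 10.7% of all probe sets in either direction and 5.33% lower in null. With the replicate number as a block, 3 of 15 passed, where 10.0% of all probe sets passed. The probe set 1448728_A_AT of Nfkbiz rose, and 1450829_AT of Tnfaip3 and 1429128_X_AT of Nfkb2 fell. The shares of all probe sets that rose and fell with the block were 4.96% and 5.05%. The 3 calls were lost when any 1 pair was left out, except that Nfkbiz still passed without the replicate 1 pair, and when the intensity trend in the variance was dropped (limma adjusted p of at least 0.0883 with the block). Without both replicate 1 arrays, 3 of 15 passed with the block (Nfkbiz 1448728_A_AT, Nfkb2 1425902_A_AT and Icam1), where 7.57% of all probe sets passed. In the unpaired fit of those 4 arrays, chosen after seeing the data, the first 2 of these passed and Icam1 did not, where 3.97% of all probe sets passed. All 15 probe sets had passed the filter on dim values. In such bulk RNA, fewer cells of a type and less RNA per cell cannot be told apart.

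**Figure D1:**
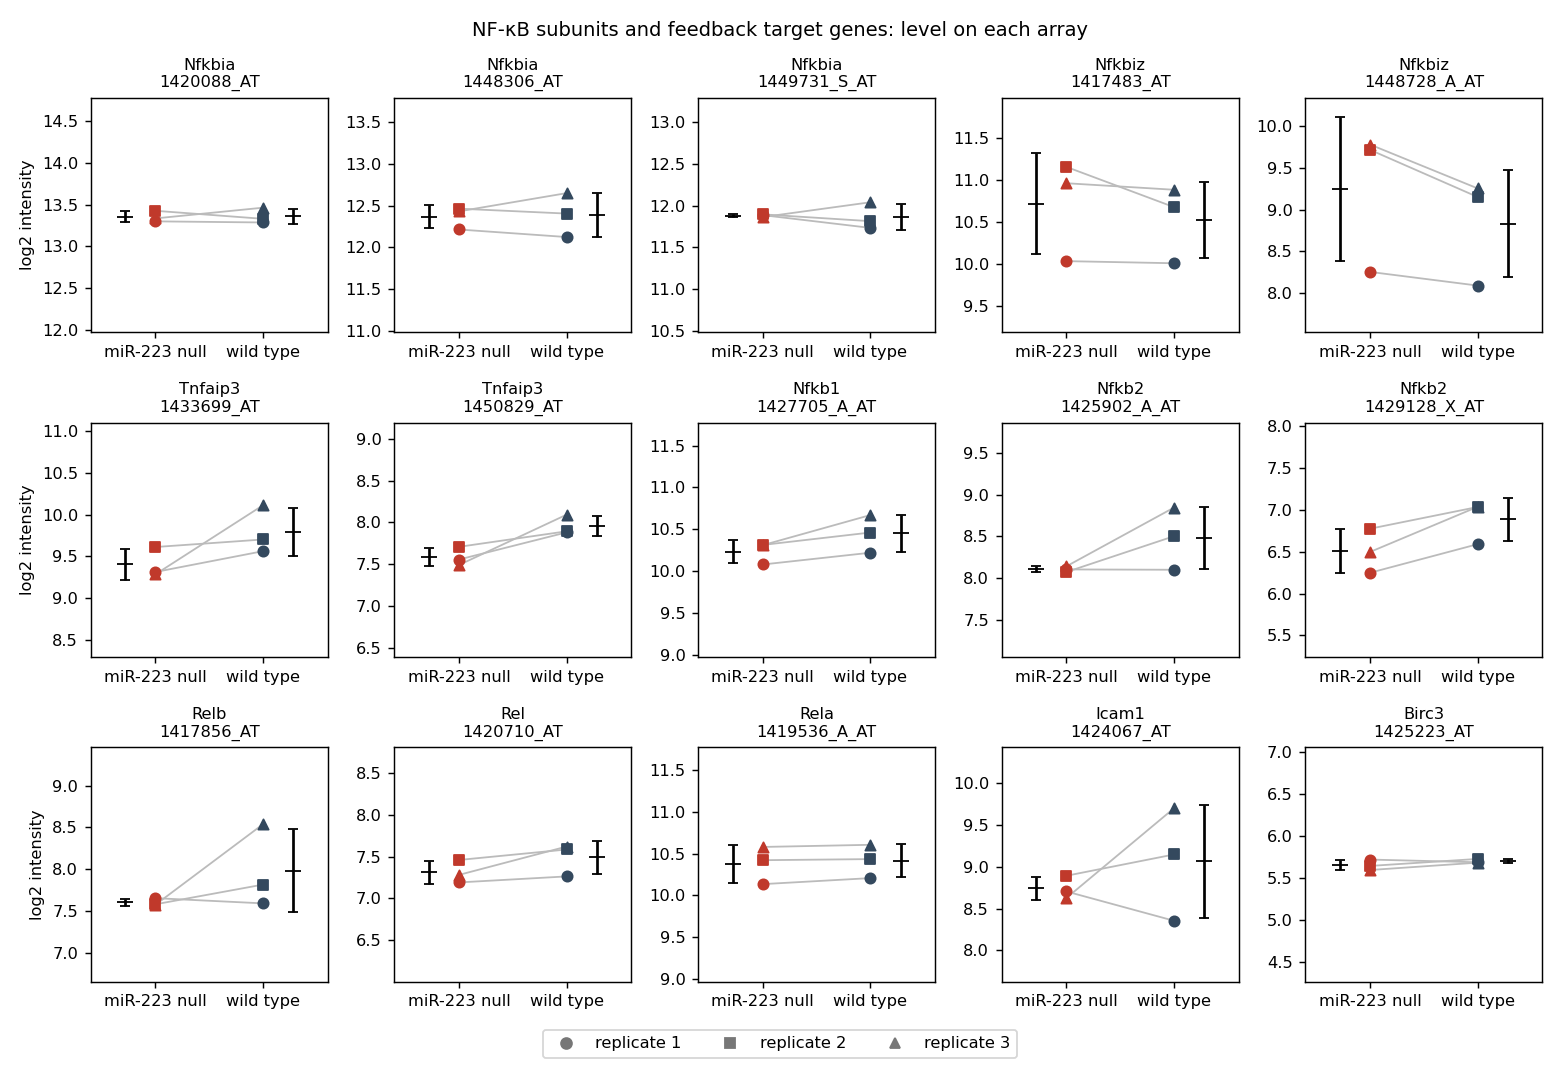
Log2 intensity of the 15 probe sets on each array, miR-223 null at left in red and wild type at right in dark blue, with a symbol for each replicate number, grey lines between arrays of the same number, and black bars for the mean and SD of 3 arrays. The null arrays lie wholly below the wild-type arrays for Tnfaip3 1450829_AT, both replicate 1 arrays lie far below the rest for Nfkbiz, and wild-type replicate 3 lies highest for Icam1 and Relb.

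Of the subunits, Nfkb2 was the one with a probe set that passed with the block. It encodes a precursor protein that restrains RelB until it is processed in the slower, alternative arm of the pathway. Probe set 1429128_X_AT read 6.25, 6.77 and 6.50 in null arrays 1 to 3, against 6.59, 7.03 and 7.04 in wild-type arrays 1 to 3. The null arrays were lower in 3 of 3 pairs, while the groups overlapped. Its mean was 6.51 ± 0.26 in null and 6.89 ± 0.26 in wild-type arrays (SD, n = 3 each), a difference of -0.38 log2 units (SE 0.18, limma adjusted p = 0.513), so the null signal was 76.8% of the wild-type signal. With the replicate block the SE was 0.094 and the limma adjusted p was 0.0448.

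The other Nfkb2 probe set, 1425902_A_AT, read 8.11, 8.07 and 8.14 in null arrays, against 8.10, 8.50 and 8.85 in wild-type arrays. The null arrays spanned only 0.068 log2 units and the wild-type arrays 0.74, and the replicate 1 arrays of both genotypes read alike. The difference was -0.38 log2 units (SE 0.18), and -0.19 without wild-type replicate 3. With all 6 arrays it did not pass (limma adjusted p = 0.526 unpaired and 0.0994 with the block). Without both replicate 1 arrays it was -0.57 and passed (limma adjusted p = 0.0470 unpaired and 0.0129 with the block).

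Relb encodes the subunit that pairs with the processed product of Nfkb2. Probe set 1417856_AT read 7.65, 7.58 and 7.57 in null arrays, against 7.59, 7.82 and 8.54 in wild-type arrays. The null arrays were nearly level, and wild-type replicate 3 stood 0.72 above the next wild-type array. The difference was -0.38 log2 units (SE 0.23, limma adjusted p = 0.626 unpaired and 0.212 with the block). It came to -0.10 without wild-type replicate 3 and to -0.57 without wild-type replicate 1. Without both replicate 1 arrays it was -0.60 (limma adjusted p = 0.149 unpaired and 0.0533 with the block).

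Nfkb1 encodes the precursor of the DNA-binding partner found in most classical dimers. Probe set 1427705_A_AT read 10.08, 10.31 and 10.31 in null arrays, against 10.22, 10.46 and 10.67 in wild-type arrays. The null array was the lower one in 3 of 3 pairs and the groups overlapped. The difference was -0.22 log2 units (SE 0.13), a null signal 86.1% of wild type. Its limma adjusted p was 0.630 unpaired and, with the block, 0.0563, just over the threshold. It was -0.11 without wild-type replicate 3, -0.33 without wild-type replicate 1 and -0.25 without both replicate 1 arrays.

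Rel encodes c-Rel, a transactivating subunit prominent in blood cells. Probe set 1420710_AT read 7.19, 7.46 and 7.28 in null arrays, against 7.26, 7.58 and 7.62 in wild-type arrays. Within pairs the differences were -0.07, -0.13 and -0.34, all in the same direction, and the groups overlapped. The mean difference was -0.18 log2 units (SE 0.14, limma adjusted p = 0.719), and ran from -0.29 to -0.11 when 1 array was left out.

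Rela encodes the main transactivating subunit of the classical arm and is present in most cells without induction. Probe set 1419536_A_AT read 10.13, 10.42 and 10.58 in null arrays, against 10.21, 10.43 and 10.60 in wild-type arrays. Replicates of 1 genotype were farther apart than the genotypes, as arrays of the same replicate number differed by -0.07, -0.01 and -0.03. The mean difference was -0.04 log2 units (limma adjusted p = 0.966), with a 95% interval of -0.38 to 0.30, and of -0.14 to 0.07 with the block.

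Among the feedback genes, Tnfaip3 gave the 1 probe set of 15 whose genotypes did not overlap, where 16.8% of all probe sets showed no overlap and 8.68% did so with null below. Tnfaip3 encodes A20, a ubiquitin-editing enzyme that shuts off signalling upstream of the IkappaB kinase. Probe set 1450829_AT read 7.56, 7.71 and 7.49 in null arrays, against 7.88, 7.89 and 8.09 in wild-type arrays. The means were 7.58 ± 0.11 in null and 7.96 ± 0.12 in wild-type arrays (SD, n = 3 each), a difference of -0.37 log2 units (SE 0.12, limma adjusted p = 0.311) and a null signal 77.3% of wild type. With the block the limma adjusted p was 0.0478. When 1 array was left out, the difference stayed between -0.43 and -0.30.

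The other Tnfaip3 probe set, 1433699_AT, read 9.31, 9.61 and 9.29 in null arrays, against 9.56, 9.70 and 10.11 in wild-type arrays. It was lower in null in 3 of 3 pairs, and null replicate 2 lay above wild-type replicate 1. The difference was -0.39 log2 units (SE 0.16, limma adjusted p = 0.462), and -0.23 without wild-type replicate 3.

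Nfkbiz read higher in null neutrophils on both of its probe sets. It encodes IkappaB-zeta, an inducible nuclear member of the IkappaB family that binds NF-kappaB dimers on DNA and is needed for a later wave of inflammatory genes, so it does not act only as an inhibitor. Probe set 1448728_A_AT read 8.25, 9.71 and 9.78 in null arrays, against 8.09, 9.15 and 9.25 in wild-type arrays. Within pairs the null array was higher by 0.16, 0.56 and 0.52, and both replicate 1 arrays lay far below all others. The difference was 0.42 log2 units, a null signal 1.34 times that of wild type. Unpaired, its SE was 0.46 and its limma adjusted p 0.823, and with the block the SE was 0.085 and the limma adjusted p 0.0261. When 1 array was left out of the unpaired fit, the difference ran from 0.05 (without wild-type replicate 1) to 0.91 (without null replicate 1). Without both replicate 1 arrays it was 0.54 and passed (limma adjusted p = 0.0147 unpaired and 0.00469 with the block), and without the replicate 2 or the replicate 3 pair it was 0.34 or 0.36 and did not (limma adjusted p = 0.159 and 0.0565 with the block).

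The second Nfkbiz probe set, 1417483_AT, read 10.03, 11.16 and 10.96 in null arrays, against 10.01, 10.68 and 10.89 in wild-type arrays. It went the same way in 3 of 3 pairs, but only the replicate 2 pair showed a gap above 0.1 log2 units. The difference was 0.20 log2 units (SE 0.33, limma adjusted p = 0.898). The replicate 1 arrays averaged 10.02 on this probe set, against 10.92 for the other 4, and 8.17 against 9.47 on 1448728_A_AT, so for Nfkbiz the replicate number separated the arrays by more than the genotype did.

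Nfkbia encodes IkappaB-alpha, the inhibitor that is degraded on activation and then made again under NF-kappaB control. Probe set 1420088_AT read 13.30, 13.43 and 13.33 in null arrays, against 13.29, 13.33 and 13.46 in wild-type arrays. Null and wild-type arrays overlapped on this and on both other Nfkbia probe sets. The difference was -0.01 log2 units (SE 0.061, limma adjusted p = 0.987), with a 95% interval of -0.15 to 0.14. Probe sets near the top of the scale, such as this one, can be compressed by saturation, which was not tested.

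The other Nfkbia probe sets also differed little between the genotypes. Probe set 1448306_AT read 12.21, 12.46 and 12.43 in null arrays, against 12.12, 12.40 and 12.65 in wild-type arrays, a difference of -0.02 log2 units (95% interval -0.34 to 0.29, limma adjusted p = 0.978). Probe set 1449731_S_AT read 11.89, 11.89 and 11.86 in null arrays, against 11.73, 11.81 and 12.04 in wild-type arrays, a difference of 0.02 (95% interval -0.18 to 0.22, limma adjusted p = 0.970). On all 3 probe sets the null array was higher in pairs 1 and 2 and lower in pair 3.

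Of the target genes, Icam1 varied most among wild-type arrays. It encodes an adhesion molecule of endothelium and leukocytes that binds the beta2 integrins of neutrophils. Probe set 1424067_AT read 8.71, 8.89 and 8.63 in null arrays, against 8.36, 9.15 and 9.70 in wild-type arrays. The null arrays lay inside the range of the wild-type arrays, which spanned 1.35 log2 units against 0.27 for null. The within-pair differences were 0.35, -0.26 and -1.07. The mean difference was -0.33. Unpaired, its SE was 0.30 and its limma adjusted p 0.779, and with the block the SE was 0.22 and the limma adjusted p 0.410. The difference came to -0.01 without wild-type replicate 3 and to 0.05 without the replicate 3 pair. Without both replicate 1 arrays it came to -0.66 (limma adjusted p = 0.0779 unpaired and 0.0428 with the block).

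Birc3 encodes an inhibitor of apoptosis that acts as a ubiquitin ligase in TNF receptor signalling. Probe set 1425223_AT read 5.72, 5.64 and 5.60 in null arrays, against 5.69, 5.73 and 5.68 in wild-type arrays. The 6 values spanned 0.13 log2 units, and the groups overlapped. The difference was -0.05 (SE 0.092, limma adjusted p = 0.917), with a 95% interval of -0.26 to 0.17.

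**Figure D2:**
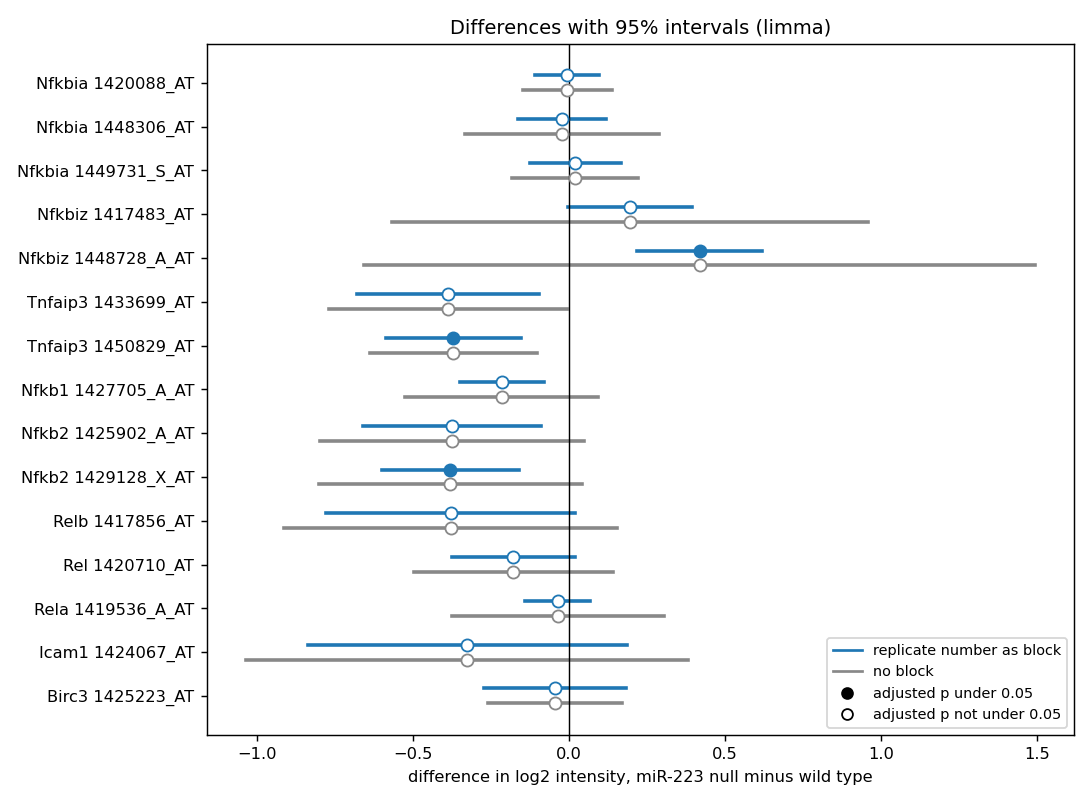
Difference in log2 intensity, miR-223 null minus wild type, for each probe set with its 95% interval from limma, in blue with the replicate number as a block and in grey without it. Filled points pass an adjusted p of 0.05, which 3 do with the block and 0 do without it, and the largest narrowing of the interval is at the Nfkbiz probe sets.

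As a list, 12 of the 15 probe sets read lower in null neutrophils, where 52.5% of all probe sets did. The median difference was -0.18 log2 units, with a range of -0.39 to 0.42, against a median of -0.01 over all 27022 probe sets. The null array was lower in 3 of 3 pairs for 6 of 15 and higher in 3 of 3 pairs for 2 of 15 (both of Nfkbiz), against 25.0% and 21.6% of all probe sets. When 1 array was left out, the median of the 15 ran from -0.29 to -0.05. The value of -0.29 came without wild-type replicate 1, with 14 of 15 lower in null. The value of -0.05 came without wild-type replicate 3, with 9 of 15 lower in null. On every listed probe set but that of Birc3, the replicate 1 arrays averaged below replicates 2 and 3. Leaving out only 1 of them therefore unbalances the genotypes. Without null replicate 1 the median was -0.12, with 9 of 15 lower in null. Without both replicate 1 arrays it was -0.23, with 13 of 15 lower. The shares of all probe sets in these settings were not counted.

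The same array stood high across most of the list. Wild-type replicate 3 held the highest of the 6 values for 12 of 15 probe sets, all except Nfkbiz and Birc3, against 15.2% of all probe sets, a count made after seeing the data. The median difference of the 15 was 0.01 in pair 1, -0.09 in pair 2 and -0.34 in pair 3, and over all probe sets it was -0.01 in each pair. Pair 3 showed the largest of the 3 differences in size for 12 of 15, against 39.2% of all probe sets. On this array the spiked poly-A controls averaged 8.32, the lowest of the 6 arrays, and the 3' minus 5' difference of beta-actin was 0.18, inside the range of 0.15 to 0.28 on all arrays. The part of the spike level in these values was not tested.

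**Figure D3:**
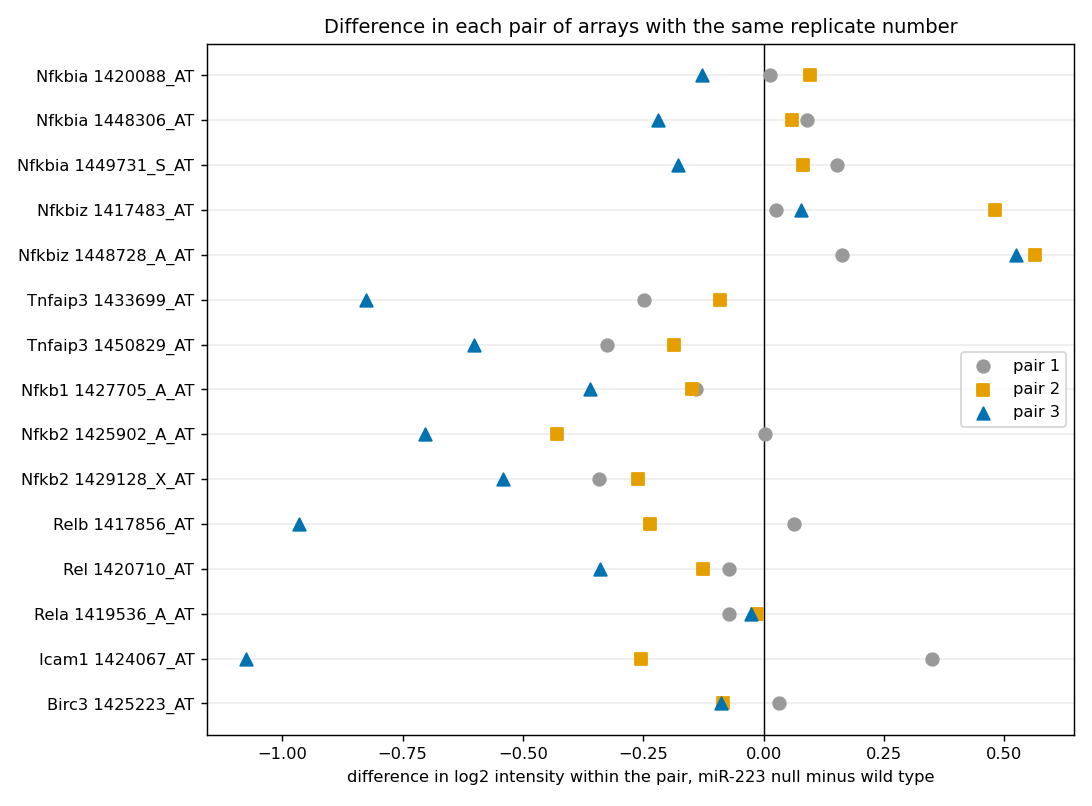
Difference in log2 intensity within each pair of arrays that share a replicate number, miR-223 null minus wild type, with a symbol and colour for each pair. The pair 3 triangles lie farthest to the left for Icam1 (-1.07), Relb (-0.96) and Tnfaip3 1433699_AT (-0.83), all 3 pairs lie right of 0 for both Nfkbiz probe sets, and the Rela points lie within 0.1 of 0.

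Probe sets of one gene agreed in direction for Nfkbiz, Tnfaip3 and Nfkb2, while the 3 of Nfkbia straddled 0. With each array left out in turn, 10 of 15 probe sets kept their direction, namely those of Tnfaip3, Nfkb1, Nfkb2, Relb, Rel, Icam1 and Birc3 with 1448728_A_AT of Nfkbiz. The other 5, those of Nfkbia and Rela with 1417483_AT of Nfkbiz, crossed 0. The same count was not made over all probe sets, so 10 of 15 cannot be set against the whole array.

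**Figure D4:**
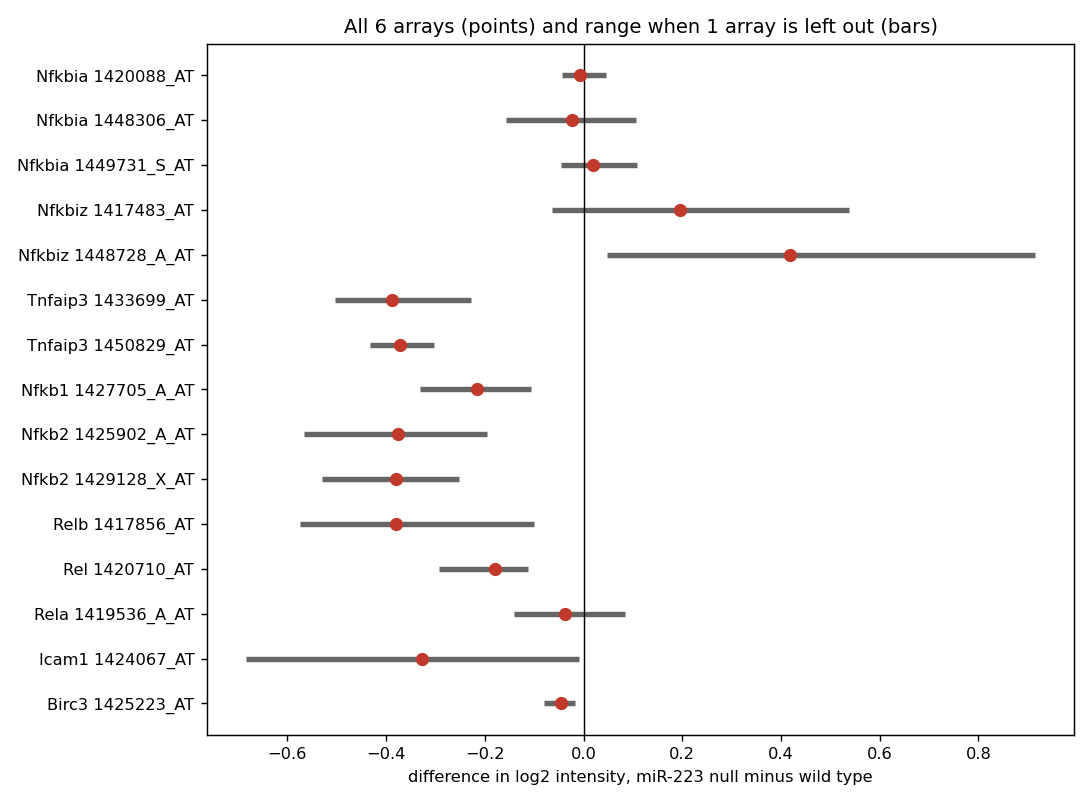
Difference in log2 intensity, miR-223 null minus wild type, over all 6 arrays (red points) and its range when each array in turn is left out (grey bars). The bars of Tnfaip3 1450829_AT (-0.43 to -0.30) and Nfkb2 1429128_X_AT (-0.53 to -0.25) stay below 0, that of Icam1 runs from -0.68 to -0.01, and those of the Nfkbia probe sets cross 0.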

How the data were processed

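The deposited table holds log2 intensity values of 45101 probe sets on 6 arrays, with array medians close to each other. The submitters' processing notes name GCOS, and background correction, normalization and probe summary are not given in the sources used here. Base-2 logarithms were read from the range, with a maximum near 15.0 on each array. Normalization before deposit, if it was done, makes differences relative to the other probe sets, and the number of arrays limits precision.

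Groups and replicate numbers came from the sample titles. The 64 control probe sets were set aside, and the 27022 of 45037 with a mean over all arrays at or above the 40th percentile (at least 4.08) were tested. The difference, null minus wild type, was fitted with limma 3.58.1 in R 4.3.3 (lmFit, eBayes with intensity trend, two-sided, adjusted p under 0.05), and the code was tested on simulated data. The alternative with the replicate number as a block was printed where it changed a call, and for some probe sets where it did not. Deviations from the group means correlated at 0.70, 0.30 and 0.48 in pairs 1 to 3, each over 0.1, which met the rule for printing the blocked value where it changes a call. The unpaired fit stayed the main one. The labels do not say what a number stands for. Null 3 also correlated with wild-type 2 at 0.41 and null 2 with wild-type 3 at 0.21. The swapped pairs thus met the same rule, and the pairing of replicates 2 and 3 is not settled. Deviations within a genotype cancel out, so a replicate 1 shift in both genotypes leaves replicates 2 and 3 correlated, matched or swapped. The rule therefore could not decide how those replicates pair.

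The rule for named genes took all 15 probe sets. Further lists of pathway genes and cell type markers were fixed but not run, because other probe sets were not paired with genes. Members and lists were chosen with earlier results of these data known. Other alternatives were no filter, a 60th percentile filter, quantile normalization, median centring, no intensity trend, each array or pair left out, and other thresholds.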

Additional observations from a re-analysis of the deposited data

How the results depend on the processing

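The count of 0 of 15 unpaired calls was also 0 with no intensity trend, after quantile normalization or median centring, with no filter or the 60th percentile filter, at an adjusted p under 0.01 and with any 1 array left out (limma). It was 3 with the replicate block, 0 with that block and no intensity trend, 0 to 3 with the block and 1 pair left out, and 2 at an unadjusted p. In settings chosen after seeing the data, it was 2 with both replicate 1 arrays left out and 3 with replicate 1 against the rest as the block. Over all probe sets the 51 unpaired calls were 2703 with the replicate block, 191 with the block and no trend, 2045, 606 and 2319 with the block and pair 1, 2 or 3 left out, 2 at an adjusted p under 0.01, 2881 at an unadjusted p, 1072 with both replicate 1 arrays left out, 2417 with replicate 1 against the rest, and 0 to 58 with 1 array left out. The 0 came without null 2 or wild-type 2, where limma gave 2064 and 1753 at an unadjusted p under 0.05, and the count was 3 without null 3 and 1 without wild-type 3. With all 6 arrays the block changed no call of a member beyond the 3 given, and with both replicate 1 arrays left out it also changed that of Icam1. All 15 probe sets also passed the 60th percentile filter, so low signal removed none of them.

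Directions turned in at least 1 setting for the Nfkbia probe sets, Nfkbiz 1417483_AT, Rela and Icam1. With 1 array left out, Nfkbia ranged from -0.0431 to 0.0454 (1420088_AT), -0.157 to 0.105 (1448306_AT) and -0.0455 to 0.108 (1449731_S_AT), Nfkbiz 1417483_AT from -0.0632 to 0.538 and Rela from -0.141 to 0.0847. With the block, Nfkbia 1449731_S_AT was -0.0478 without pair 1 and -0.0122 without pair 2, while without pair 3 Nfkbia was 0.0548 (1420088_AT) and 0.0745 (1448306_AT) and Icam1 0.0477. With both replicate 1 arrays left out, Nfkbia 1449731_S_AT was -0.0478. The cause was not tested.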
